A study of Mus musculus with 24 samples.

Results

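The Fc gamma receptors are the cell surface proteins by which phagocytes bind antibody of class IgG, and the genes described here are the mouse receptors Fcgr1, Fcgr3, Fcgr4 and Fcgr2b together with Fcer1g, the adaptor of the activating receptors. They were taken by name from the deposited count tables, which held 53700 Ensembl identifiers for microglia and 55487 for astrocytes, and all 5 were found in both. Fcgr1 is the receptor that binds monomeric IgG most tightly, while Fcgr3 and Fcgr4 bind mainly immune complexes. These activating receptors signal through the paired Fcer1g chain, whose immunoreceptor tyrosine-based activation motif is phosphorylated by Src family kinases and then binds Syk. Fcgr2b is the inhibitory receptor: its cytoplasmic tail carries an inhibitory motif that recruits the lipid phosphatase Inpp5d. In the brain these genes are known mainly from microglia and other macrophages, and the balance of activating to inhibitory receptors is known to set the threshold for the response to IgG-coated targets.

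The libraries came from adult Serpine2-/- mice (labelled knockout) and from littermates in which 1 Serpine2 allele or both worked (labelled control), so that a control may carry a single disrupted copy. Serpine2 encodes an inhibitor of serine proteases. Some pairs of littermates had received lipopolysaccharide (LPS, a bacterial cell wall product that activates innate immune cells) and the others saline, and microglia from whole brain or astrocytes from cerebral cortex were then isolated on antibody-coated dishes. There were 3 libraries in each of 8 groups: microglia and astrocytes, each after saline or LPS, each from control or knockout mice. The dose, the interval after injection, the strain and whether a library pooled animals are not given in the sources used here.

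Gene counts summed to between 4506142 and 13621776 per microglia library and to between 10944765 and 25135252 per astrocyte library. Reads that the counting assigned to no feature made up 56.2 to 72.7% in microglia and 15.9 to 21.1% in astrocytes. Where in the genome they lay is not given. Serpine2 lay between 16.4 and 22.2 counts scaled to one common library total (CPM) in the knockout libraries and between 46.6 and 169 CPM in the controls. The sex-linked transcripts matched the labelled sex in 23 of 24 libraries. The exception was LPS control 1 of the microglia, labelled female, whose counts of Xist (73) and Ddx3y (251, Y-linked) had the pattern of the male libraries. By label, both saline groups of the microglia were male, female and male in order of number, and both LPS groups female, male and female. Labelled sex thus went in part with injection in the microglia. The microglia marker Csf1r stood at 646 to 1913 CPM in the microglia preparations and at 27.3 to 109 CPM in the astrocyte preparations. The astrocyte marker Slc1a2 stood at 357 to 449 CPM and at 7202 to 13419 CPM in the same order. The summed level of 10 neuronal markers was 2421 to 3378 CPM in the microglia preparations and 265 to 396 CPM in the astrocyte preparations. CPM were scaled within each cell type, so these levels are not on a shared scale between the preparations. In preparations of this kind, fewer cells of a type and less RNA per cell cannot be told apart.

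In GENCODE release M21 on GRCm38, 4 of the 5 genes lie on chromosome 1 within 275.7 kb. Fcgr2b (ENSMUSG00000026656) is at 170958617 to 170976547 on the minus strand, Fcgr4 (ENSMUSG00000059089) at 171018920 to 171029761 on the plus strand, Fcgr3 (ENSMUSG00000059498) at 171051174 to 171064935 on the minus strand, and Fcer1g (ENSMUSG00000058715) at 171229572 to 171234365 on the minus strand. Fcgr1 (ENSMUSG00000015947) is on chromosome 3 at 96282909 to 96293969, on the minus strand. Of the 50-base windows along the exons of Fcgr3, 9.58% also occur in Fcgr2b. Of those of Fcgr2b, 4.38% occur in another gene, in Fcgr3 or in genes outside this group. Reads that lie wholly within such windows may not be placed uniquely, and how many did so was not measured. No window of Fcgr1, Fcgr4 or Fcer1g was shared. The antisense gene Gm38204, which overlaps Fcgr2b, had at most 3 counts in any library.

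The upstream stretches of 4 of the genes are shown because the genes work together and, for 3 of the 4, share a locus, but differed in how far they moved after LPS. They come from RefSeq on GRCm38.p6, run 5′ to 3′ on the strand of the gene and end at or just before the annotated start. For Fcgr3 this RefSeq start lies within the GENCODE span given above and not at its 5′ end. Capitals mark matches on either strand to 5 short motifs: a PU.1 core (GAGGAA), an interferon-gamma activated site (TTCNNNGAA), an interferon response element (GAAA and GAAA with any 2 letters between), a C/EBP site (TTGCNNAA) and an NF-kB site (GGGA and CC with any 4 letters between). No 2 matches overlap in these stretches.
Fcgr1, chr3:96293970-96294219, minus strand: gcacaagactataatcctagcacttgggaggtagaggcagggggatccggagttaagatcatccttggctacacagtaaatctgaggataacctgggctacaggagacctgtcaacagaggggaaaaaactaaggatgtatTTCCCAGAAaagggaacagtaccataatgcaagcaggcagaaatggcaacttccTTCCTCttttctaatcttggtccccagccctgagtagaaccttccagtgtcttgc
Fcgr3, chr1:171059404-171059626, minus strand: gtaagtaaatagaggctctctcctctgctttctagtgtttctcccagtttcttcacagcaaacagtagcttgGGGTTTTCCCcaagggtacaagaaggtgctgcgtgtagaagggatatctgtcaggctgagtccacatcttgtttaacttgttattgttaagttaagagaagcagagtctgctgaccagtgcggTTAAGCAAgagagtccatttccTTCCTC
Fcgr4, chr1:171018676-171018919, plus strand: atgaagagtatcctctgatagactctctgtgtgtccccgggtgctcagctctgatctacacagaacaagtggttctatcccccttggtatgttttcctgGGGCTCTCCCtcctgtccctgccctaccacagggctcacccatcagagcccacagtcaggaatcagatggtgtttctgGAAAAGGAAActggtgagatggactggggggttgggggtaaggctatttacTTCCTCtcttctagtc
Fcer1g, chr1:171234366-171234599, minus strand: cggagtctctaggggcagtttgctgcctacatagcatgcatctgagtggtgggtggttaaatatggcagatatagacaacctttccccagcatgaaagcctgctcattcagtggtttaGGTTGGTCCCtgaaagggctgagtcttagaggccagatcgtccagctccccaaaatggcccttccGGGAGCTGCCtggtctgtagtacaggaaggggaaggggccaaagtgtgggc
The PU.1 core began 55 bases before the start of Fcgr1, 6 before that of Fcgr3 and 22 before that of Fcgr4, and was not found in the 250 bases upstream of Fcgr2b or Fcer1g. Among 32851 promoters of the same length, 23.3% held it. The interferon response element was found upstream of Fcgr4 alone of the 5, 73 bases before the start, and in 2.98% of all promoters. The interferon-gamma activated site was found upstream of Fcgr1 alone of the 5, at 109 bases, and in 7.02% of all promoters. An NF-kB match, held by 17.6% of all promoters, was found 151 bases before both Fcgr3 and Fcgr4, upstream of Fcgr2b, and at 2 positions upstream of Fcer1g. The C/EBP match of Fcgr3 (9.56% of all promoters) began 28 bases before its start. Matches to such short motifs are a description of the letters and not evidence of binding.

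In microglia after saline, Fcer1g and Fcgr3 were the most abundant of the 5 per length of exon and Fcgr4 the least. In CPM per kb of exon, Fcer1g stood at 85.0 ± 32.6 (SD, n = 3) in the saline controls, Fcgr3 at 59.5 ± 29.9, Fcgr1 at 16.5 ± 3.57, Fcgr2b at 4.25 ± 0.695 and Fcgr4 at 1.93 ± 0.283. Fcer1g and Fcgr3 did not differ beyond their spread, whereas from Fcgr3 on the lowest library of each gene lay above the highest library of the next. The saline knockouts gave the same order, from 75.8 ± 25.9 for Fcer1g to 1.96 ± 0.582 for Fcgr4. After LPS the adaptor led at 172 ± 62.0 in controls and 184 ± 11.7 in knockouts, followed by Fcgr3 at 72.2 ± 16.4 and 79.8 ± 15.3. Fcgr4 moved from the lowest place to the level of Fcgr1: 19.2 ± 8.99 against 20.4 ± 6.51 in controls, and 22.5 ± 3.29 against 22.5 ± 2.71 in knockouts. Fcgr2b was then the lowest, at 9.15 ± 2.39 and 9.97 ± 2.23, and its range overlapped that of Fcgr4 in controls but not in knockouts. The order was the same in every group when the length of the longest coding transcript was used.

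**Figure D1:**
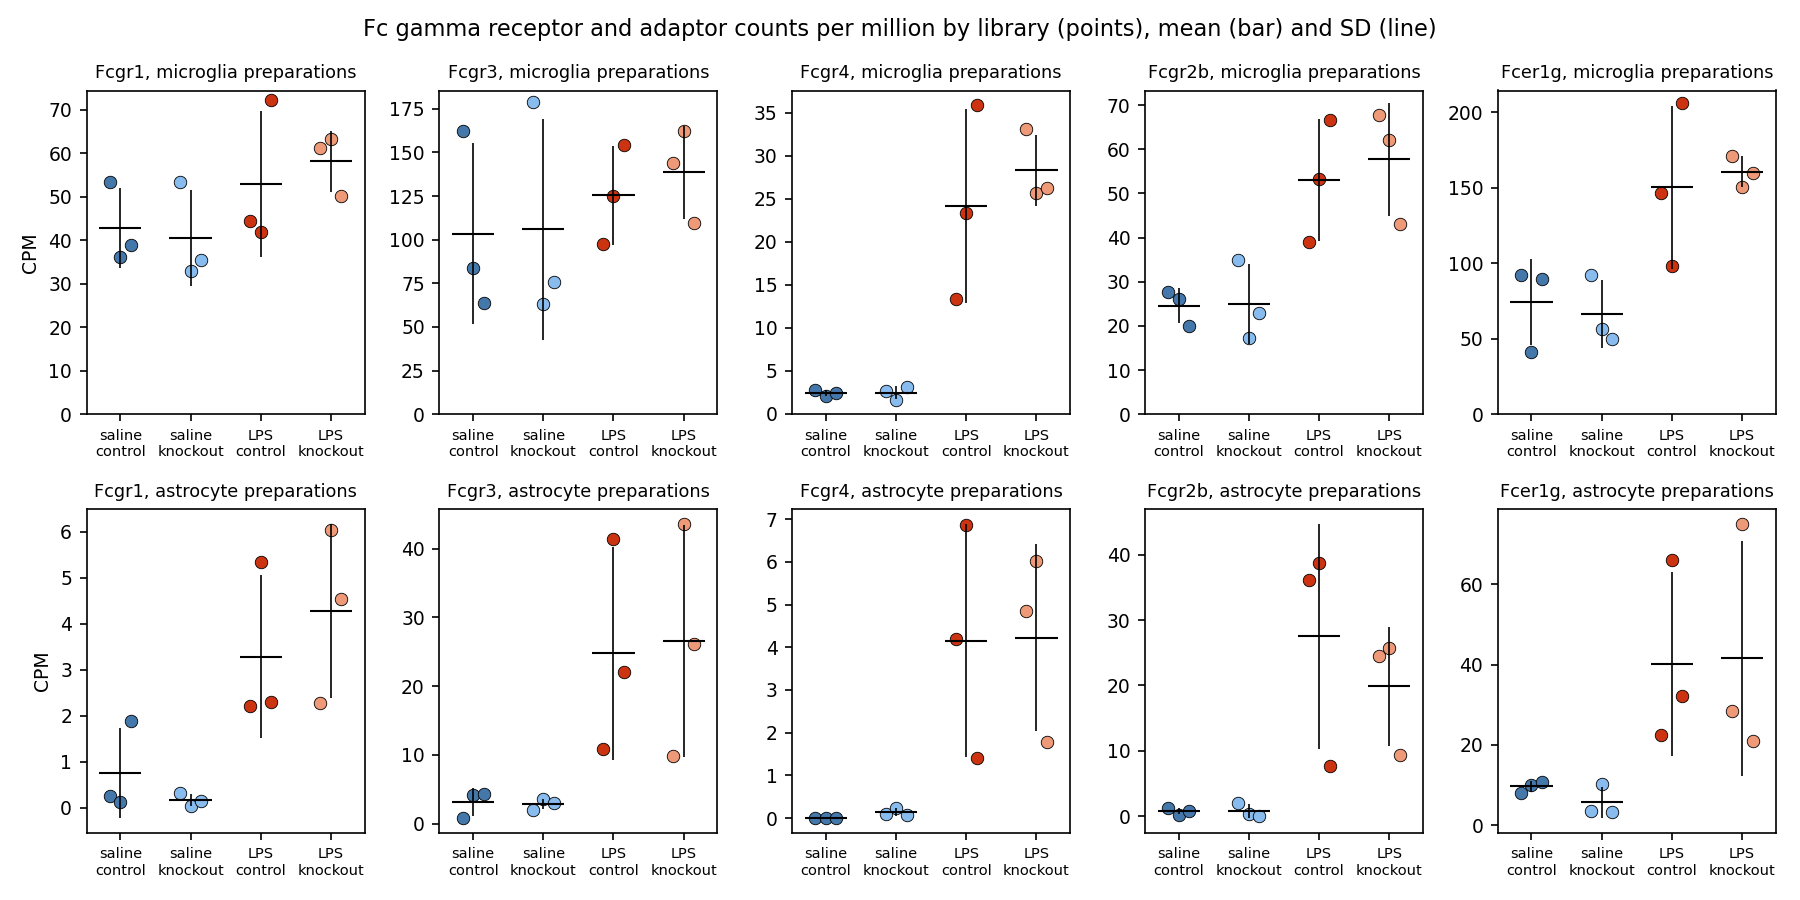
CPM of the 5 genes (columns) in microglia (upper row) and astrocyte preparations (lower row), with each library as a point, the group mean as a bar and the SD as a line, n = 3 per group; the vertical scales differ between panels. Fcgr4 in microglia lay at 1.66 to 3.10 CPM after saline and at 13.3 to 35.9 CPM after LPS, and the third LPS astrocyte libraries lay low for Fcgr2b and Fcgr4.

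LPS against saline in microglia asks how the receptors respond to innate immune activation. Fcgr4 rose 9.89-fold in controls and 11.6-fold in knockouts and was the only one of the 5 past the threshold (adjusted p under 0.05) in either genotype. Fcgr2b (2.16-fold and 2.32-fold) and Fcer1g (2.02-fold and 2.43-fold) had higher estimates that did not pass it. The estimates of Fcgr1 (1.23-fold and 1.44-fold) and Fcgr3 (1.22-fold and 1.31-fold) were closer to no change. Of all 22230 genes tested, 0.526% were called higher in controls and 1.01% in knockouts, beside 1 of these 5 in each.

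Fcgr4, the activating receptor for IgG2 immune complexes, had 2.76, 2.05 and 2.45 CPM in the saline controls and 13.3, 23.3 and 35.9 CPM in the LPS controls. The saline knockouts had 2.60, 1.66 and 3.10 CPM and the LPS knockouts 33.1, 25.7 and 26.2 CPM. The lowest LPS library, LPS control 1, was well above the highest saline library, and the groups did not overlap. The log2 difference was 3.31 (SE 0.37, adjusted p = 0.000444) in controls and 3.54 (SE 0.37, adjusted p = 0.000244) in knockouts. LPS control 1 is the library whose sex-linked transcripts went against its label: without it the control difference was 3.64 (adjusted p = 0.000104). Both calls held in every alternative that was run.

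Fcgr2b, the inhibitory receptor, had 27.6, 26.2 and 20.1 CPM in the saline controls and 39.0, 53.2 and 66.7 CPM in the LPS controls. It had 34.9, 17.3 and 22.9 CPM in the saline knockouts and 67.8, 62.2 and 43.2 CPM in the LPS knockouts. The groups did not overlap in either genotype. The log2 differences of 1.11 (SE 0.28) and 1.21 (SE 0.29) missed the threshold, with adjusted p of 0.147 and 0.0578. The knockout difference passed it without saline control 2 (1.23, adjusted p = 0.0414), without saline control 3 (1.22, adjusted p = 0.0369) or without saline knockout 1 (1.50, adjusted p = 0.0340). With DESeq2 it passed in both genotypes, at adjusted p of 0.0216 in controls and 0.00512 in knockouts, and it also passed in both with no filter on low counts.

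Fcer1g, the adaptor, had 92.1, 41.4 and 89.3 CPM in the saline controls and 146, 98.1 and 206 CPM in the LPS controls. Saline knockouts had 92.2, 56.7 and 49.98 CPM, and LPS knockouts 171, 151 and 160 CPM. Every LPS library was above every saline library of its genotype, with LPS control 2 the lowest of them in controls. The log2 differences were 1.01 (SE 0.32, adjusted p = 0.341) and 1.28 (SE 0.32, adjusted p = 0.0847). The knockout difference passed without saline control 2 (1.30, adjusted p = 0.0176), saline knockout 1 (1.57, adjusted p = 0.0493) or LPS control 3 (1.28, adjusted p = 0.0498), and with DESeq2 (adjusted p = 0.00918). It also passed with the replicate number as a block (1.30), in a fit of the 2 groups alone (1.29) and with no filter on low counts (1.29), and the control difference passed with no filter (1.07).

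Fcgr1, the high-affinity receptor, had 53.4, 36.1 and 39.0 CPM in the saline controls and 44.5, 41.9 and 72.3 CPM in the LPS controls. In knockouts it had 53.3, 33.0 and 35.5 CPM after saline and 61.1, 63.2 and 50.2 CPM after LPS. Saline and LPS libraries overlapped in both genotypes. The log2 differences were 0.30 (95% interval -0.25 to 0.85) and 0.52 (-0.03 to 1.07).

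Fcgr3, the activating receptor for IgG1 complexes, had 162, 84.0 and 63.9 CPM in the saline controls and 97.2, 125 and 154 CPM in the LPS controls. Its values were 179, 63.1 and 75.8 CPM in the saline knockouts and 144, 162 and 110 CPM in the LPS knockouts. Saline knockout 1 was the highest of all 12 libraries and saline control 1 lay above every LPS control, so that saline and LPS groups overlapped in both genotypes. The log2 differences were 0.28 (95% interval -0.53 to 1.09) and 0.39 (-0.42 to 1.20). Without saline control 1 the control difference was 0.80, and without saline knockout 1 the knockout difference was 0.97, neither past the threshold.

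Left without LPS control 1, the library at odds with its sex label, the control estimates of these 4 genes were 0.45 for Fcgr1, 0.46 for Fcgr3, 1.32 for Fcgr2b and 1.07 for Fcer1g, and none was called. The groups did not overlap for 3 of the 5 members in each genotype (Fcgr4, Fcgr2b and Fcer1g, all higher after LPS), beside 5.46% of all genes in controls and 7.39% in knockouts.

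**Figure D2:**
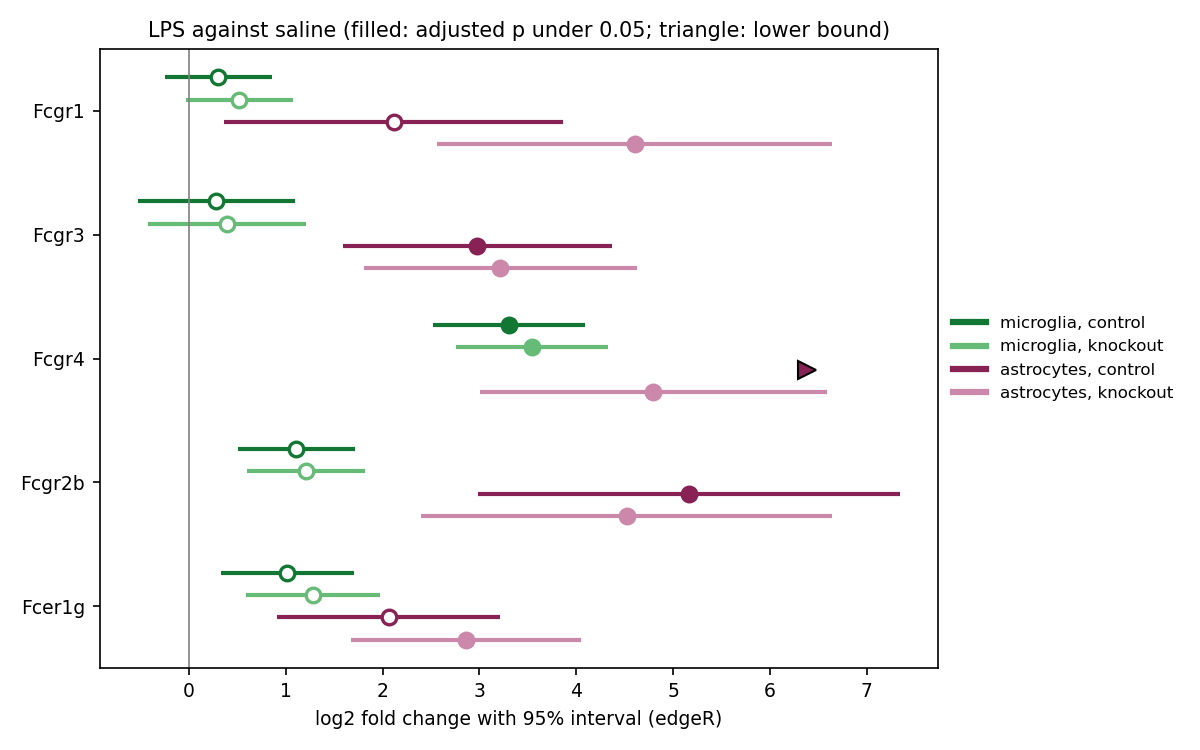
Log2 fold change of LPS against saline for each gene (rows) in microglia (green) and astrocyte preparations (purple), in controls (dark) and knockouts (light), with 95% intervals from edgeR. Filled points are past the adjusted p threshold of 0.05, as Fcgr4 is in microglia (3.31 and 3.54). The triangle at 6.38, named a lower bound in the figure, is Fcgr4 in control astrocytes, where the saline group had 0 counts. It sets the LPS mean against a floor of 3 counts and leaves out the spread between the LPS libraries, unlike the intervals.

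The balance of the receptor transcripts in microglia was read from their levels per length. The summed CPM per kb of Fcgr1, Fcgr3 and Fcgr4 over that of Fcgr2b was 24.3, 14.1 and 15.5 in the saline controls and 12.4, 11.6 and 12.6 in the LPS controls. It was 20.8, 16.9 and 15.2 in the saline knockouts and 11.4, 12.9 and 13.9 in the LPS knockouts. The ratio was lower in every LPS library than in any saline library of its genotype. Fcgr4 made up 2.69% ± 0.873 (SD, n = 3) of the activating sum in saline controls and 16.6% ± 3.57 in LPS controls. In knockouts the share went from 2.80% ± 1.25 to 18.3% ± 3.01. The adaptor over the activating sum was 1.18 ± 0.626 and 1.56 ± 0.477 in control saline and LPS libraries, with overlapping ranges. These ratios were described without a test, and they compare transcripts, not receptors on the surface. Their level depends on the length used. Per kb of the longest coding transcript, saline controls had 6.96 rather than 4.25 CPM of Fcgr2b and 76.5 rather than 59.5 CPM of Fcgr3.

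**Figure D3:**
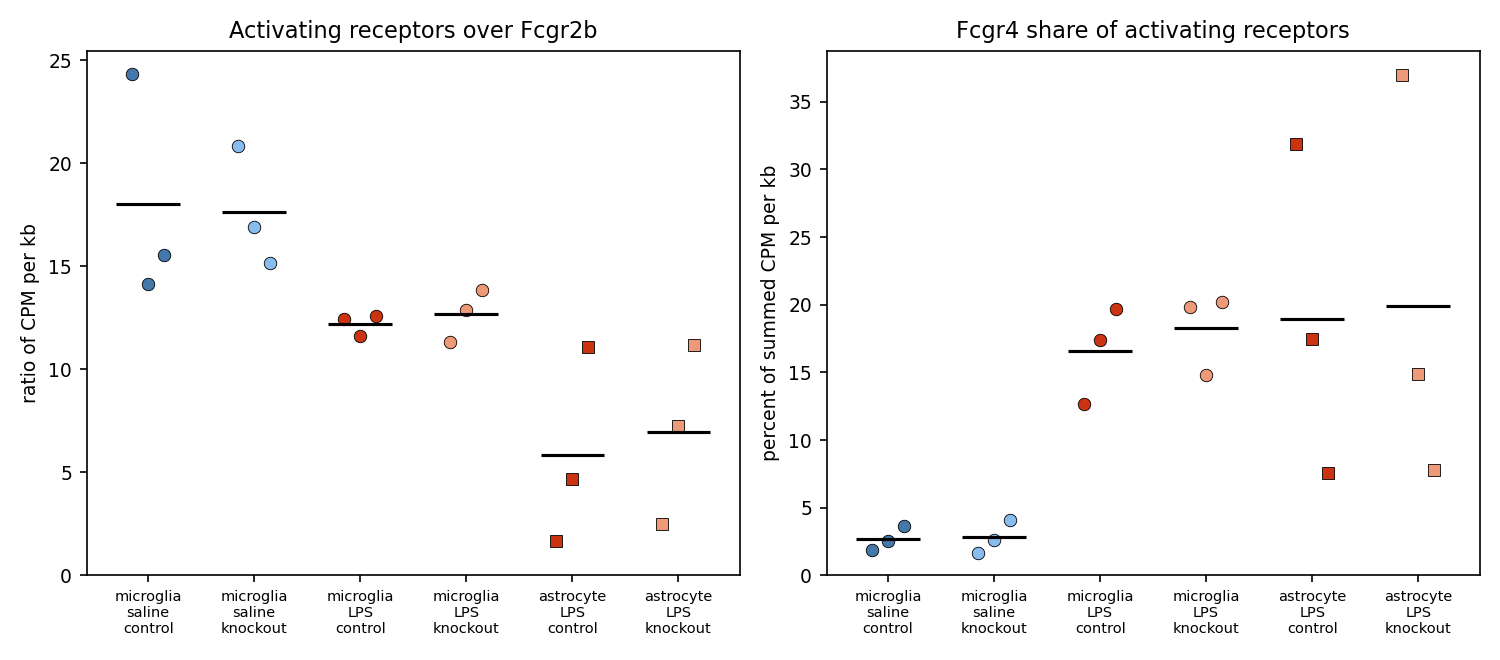
Left, the summed CPM per kb of Fcgr1, Fcgr3 and Fcgr4 divided by that of Fcgr2b in each library; right, the percent of that sum contributed by Fcgr4; bars are group means, n = 3, and circles are microglia and squares LPS astrocyte preparations. The microglia ratio was 14.1 to 24.3 after saline and 11.6 to 12.6 after LPS in controls, and the LPS astrocyte libraries spread from 1.68 to 11.2.

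Markers of other cells were measured beside these results. In the control microglia, the summed level of 10 microglia markers was 2661 to 5113 CPM after saline and 1563 to 2823 CPM after LPS, and 2 of the 10 were called lower (P2ry12, log2 difference -2.74, and Gpr34, -2.39). In knockouts the sums were 2180 to 5105 CPM and 1400 to 2436 CPM, with 3 called lower, the third being Siglech (-2.32). The 10 monocyte markers, of which Vcan was the most abundant, summed to 153 to 208 CPM and 158 to 169 CPM in control saline and LPS libraries. Plac8 was called higher (2.27). In knockouts they summed to 179 to 234 CPM and 161 to 386 CPM, the highest being LPS knockout 1, with none called. The 10 neutrophil markers summed to 731 to 877 CPM and 640 to 973 CPM in controls. In knockouts they summed to 1372 to 2535 CPM and 390 to 1066 CPM, with 4 called lower (Ly6g, Ngp, Camp and Ltf). The 8 border macrophage markers summed to 43.7 to 70.9 CPM and 57.0 to 78.5 CPM in controls and to 46.7 to 114 CPM and 58.4 to 120 CPM in knockouts, with none called. The 8 markers of natural killer and T cells summed to 2.25 to 3.25 CPM and 10.7 to 22.4 CPM, with Gzma called higher (5.09); in knockouts they summed to 3.14 to 3.65 CPM and 15.1 to 38.0 CPM, with Gzma (4.73) and Ncr1 (4.04) called higher. Leaving out each of the 12 libraries in turn ended the call of Ncr1 9 times, of Ltf 4 times and of Plac8 3 times, and of no other marker named here. None of the astrocyte, neuron, B cell, oligodendrocyte and endothelial markers tested was called in either genotype. No marker of these lists was at 0 in every library of a microglia group. Their part in the level of Fcgr4 was not tested.

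Genes that act below the receptors were measured beside them in microglia. Of 16 genes of activating signalling, 2 were called higher in controls and 3 in knockouts, none lower, with median log2 differences of 0.17 and 0.44 beside -0.05 and -0.02 over all genes. The Src family kinase Fgr rose by 2.68 in controls and by 2.33 in knockouts, and Rac2, a GTPase of the phagocyte cytoskeleton and oxidase, rose by 1.33 and 1.20, with the knockout call lost without each of 4 libraries in turn. Syk itself stood at 34.4 ± 2.70 CPM (SD, n = 3) in saline controls and 39.8 ± 10.6 CPM in LPS controls and was not called. The second shared ITAM adaptor, Tyrobp, had 164 ± 95.5 and 240 ± 85.7 CPM and was not called either.

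Of 9 genes of inhibitory signalling, 2 were called higher in controls and 3 in knockouts, with medians of 0.44 and 0.22. Pirb, a receptor with inhibitory motifs, rose by 2.23 and 1.98, and the adaptor Dok2 by 2.50 and 2.40. The phosphatase Ptpn6 passed in knockouts (1.18), a call lost without each of 4 libraries in turn. Inpp5d, the phosphatase that Fcgr2b recruits, had 99.8 ± 35.4 CPM in saline controls and 67.7 ± 15.4 CPM in LPS controls and was not called.

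Of 6 other receptors that use Fcer1g as adaptor, 5 were tested. Clec4e, the receptor Mincle, rose by 3.93 in controls and 3.44 in knockouts, from 0.407 ± 0.0923 to 6.31 ± 2.66 CPM in controls. The control call was lost when 1 of the 12 libraries was left out. The paired receptor Pira2 passed in knockouts (2.48), a call lost without each of 8 of the 12 libraries in turn. The median of the 5 was 1.75 in controls and 2.39 in knockouts. Of 11 other Fc receptors, 6 were tested and none was called, including the neonatal receptor Fcgrt (23.0 ± 12.6 and 27.9 ± 10.5 CPM in saline and LPS controls). Of 8 immunoglobulin chain genes, the source of the ligands, 5 were tested and none was called. Of 11 genes of interferon-gamma input and myeloid transcription factors, 10 were tested and none was called. Spi1, which encodes PU.1, had 35.2 ± 17.8 and 46.9 ± 20.2 CPM.

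Genes whose pattern was most like each member over the 12 microglia libraries were found among 10998 genes, by the Pearson correlation of log2 CPM. The libraries share their group structure, so these values are descriptions. Fcgr4 was most like Marco (r = 0.990), a scavenger receptor, Ifi30 (0.986), a lysosomal thiol reductase, and Saa3 (0.986), an acute phase gene. Fcgr2b was most like Tlr1 (0.964), Adgre1 (0.962) and Ctsc (0.956). Fcer1g was most like Akr1a1 (0.980), Clta (0.979) and Slc13a3 (0.976). Fcgr3 was most like Hfe (0.929), Lap3 (0.925) and Litaf (0.914), and Fcgr1 was most like Plcg2 (0.958), Eif3g (0.924) and Rtcb (0.918). Among the members themselves the highest correlation was that of Fcgr2b with Fcgr4 (0.928) and the lowest that of Fcgr3 with Fcgr4 (0.514).

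Knockout against control asks whether Serpine2 affects the receptors. No member was called in microglia after saline, after LPS, averaged over both, or for the difference in the LPS response. Over all 22230 genes, 0 were called after saline, 0 after LPS and 0 for the difference in response, beside 351, 335 and 251 at an unadjusted p under 0.05. Each of these counts is a smaller share of the genes than the 0.05 that evenly spread p-values would give. They are therefore no surplus, and the p-values of these comparisons ran high, for a reason that was not tested. DESeq2 called 1 gene in each of these 3 comparisons, and no member. In the averaged comparison 0.0045% were called. Averaged over saline and LPS, the log2 difference was 0.03 for Fcgr1 (95% interval -0.36 to 0.42) and 0.07 for Fcgr2b (-0.36 to 0.50). It was 0.09 for Fcgr3 (-0.49 to 0.66), 0.12 for Fcgr4 (-0.43 to 0.66) and -0.04 for Fcer1g (-0.52 to 0.45). The intervals, not the p-values, show which sizes of difference these libraries could have missed. After saline the largest estimate was that of Fcer1g (-0.17, interval -0.85 to 0.52) and after LPS that of Fcgr4 (0.23, -0.43 to 0.90). Without LPS control 1, the library at odds with its sex label, the Fcgr4 estimate after LPS was -0.06. Set between the genotypes, the LPS response differed by estimates that ran from 0.10 for Fcgr2b to 0.27 for Fcer1g, whose interval was -0.70 to 1.23. None of the genes of the 6 lists around the receptors was called between genotypes in either cell type.

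**Figure D4:**
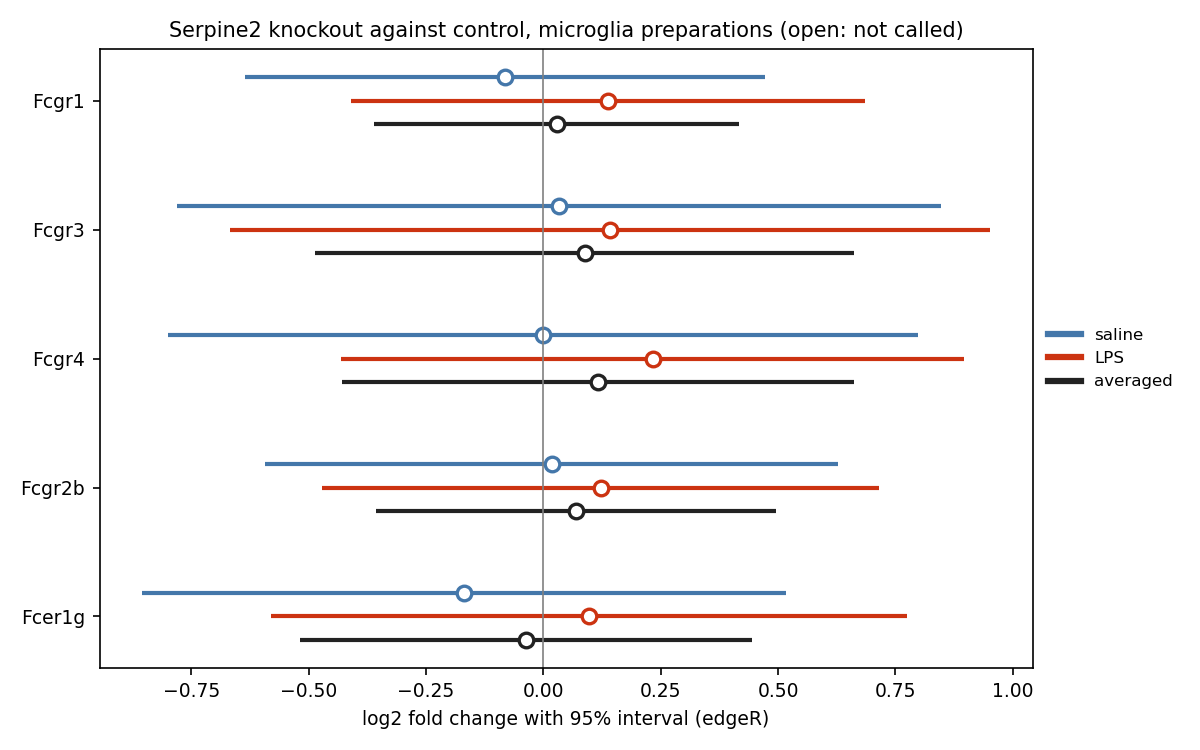
Log2 fold change of Serpine2 knockout against control in microglia after saline (blue), after LPS (red) and averaged over both (black), with 95% intervals from edgeR; open points are not called. Every interval includes 0, and the averaged estimates lie between -0.04 and 0.12.

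In astrocyte preparations all of the members were low after saline. The saline controls had 0.255, 0.137 and 1.89 CPM of Fcgr1, 1.22, 0.274 and 0.811 of Fcgr2b, 0.817, 4.20 and 4.38 of Fcgr3, and 8.11, 10.0 and 10.7 of Fcer1g. Fcgr4 had 0 counts in all 3 saline controls, which allows up to 0.050 CPM over the group (3 counts, for counting error only), and 8 counts in all over the saline knockouts. Against the microglia of saline controls, in a fit over all 24 libraries, Fcgr1 was higher in microglia by 4.02 on the log2 scale (adjusted p = 3.88e-06), Fcgr2b by 3.18 (adjusted p = 0.000373) and Fcgr3 by 3.22 (adjusted p = 5.16e-05). Fcgr4 was called higher in microglia against a group at 0 (adjusted p = 4.47e-05). Fcer1g was higher by 1.11 (adjusted p = 0.0406), a call lost without microglia saline control 1 (0.93) or 3 (1.00) or without astrocyte saline control 1 (1.02), 2 (1.16) or 3 (1.19). In that comparison 32.1% of all 24607 genes were called higher in microglia, beside 5 of these 5 genes. CPM were scaled within each cell type, so they are not on the scale of this fit. Its TMM factors ran from 0.484 to 1.82, and mitochondrial transcripts made up 2.45 to 6.0% of gene counts in microglia and 32.3 to 45.0% in astrocytes. TMM takes most genes as unchanged, whereas 13707 genes were called here in either direction. The sizes of these differences thus rest on an uncertain scaling. In saline controls Fcer1g averaged 74.3 CPM in microglia and 9.62 CPM in astrocytes, whereas the fit gave 2.16-fold. Cell type cannot be told apart there from brain region, preparation and annotation release.

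In the astrocyte preparations Fcgr2b, Fcgr3 and Fcgr4 were called higher after LPS in both genotypes, and Fcgr1 and Fcer1g in knockouts, with wide spread between libraries. The libraries numbered 3 of both LPS groups stood apart for Fcgr2b and Fcgr4. They are the only ones labelled female in their groups, so that number and sex cannot be told apart there. In the LPS astrocytes the same-numbered control and knockout deviated together (correlations of 0.297, 0.157 and 0.354 over all genes). Each result below is therefore also given without the libraries numbered 3. Fcgr1 and Fcgr4 passed the filter on low counts through the LPS libraries alone, so that a difference for them follows in part from the filter. Fcgr2b, Fcgr3 and Fcer1g passed it on the saline libraries as well. Of all 18188 genes tested, 0.775% were called higher in control astrocytes, beside 3 of the 5 members, and 1.35% in knockout astrocytes, beside all 5. Saline and LPS libraries did not overlap for any of the 5 in either genotype, beside 9.51% and 9.53% of all genes.

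Fcgr2b had 36.1, 38.7 and 7.67 CPM in the LPS controls and 24.5, 25.8 and 9.44 CPM in the LPS knockouts, against 2.06, 0.440 and 0 CPM in the saline knockouts. Even the low libraries numbered 3 exceeded every saline library. The saline level of Fcgr2b rested on 45 counts in all over the controls and 48 over the knockouts. The log2 difference was 5.16 (SE 1.00, adjusted p = 0.0376) in controls and 4.52 (SE 0.97, adjusted p = 0.0447) in knockouts. Without both libraries numbered 3 the values were 5.62 (adjusted p = 0.00127) and 4.86 (adjusted p = 0.00296). The control call was lost without saline control 1 (5.67), 2 (4.75) or 3 (5.20), saline knockout 2 (5.16), LPS control 1 (4.91) or 2 (4.84) or LPS knockout 2 (5.16), at adjusted p of up to 0.200. The knockout call was lost without saline control 1, 2 or 3 or LPS control 1 or 2 (4.52 each), saline knockout 2 (4.19) or 3 (4.01), or LPS knockout 1 (4.34) or 2 (4.29), at adjusted p of up to 0.189.

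Fcgr3 had 10.9, 41.4 and 22.0 CPM in the LPS controls. It had 2.00, 3.52 and 3.01 CPM in the saline knockouts and 9.90, 43.6 and 26.1 CPM in the LPS knockouts. Its low libraries were those numbered 1 and its highest those numbered 2, an order unlike that of Fcgr2b. The log2 difference was 2.98 (SE 0.65, adjusted p = 0.0455) in controls and 3.22 (SE 0.66, adjusted p = 0.0272) in knockouts, and 3.07 and 3.24 without both libraries numbered 3 (adjusted p = 0.0348 and 0.0241). The control call was lost without saline control 1 (2.52), 2 (3.25) or 3 (3.29), saline knockout 1 (2.97), 2 (2.97) or 3 (2.99) or LPS control 2 (2.39), and in a fit of the 2 groups alone (3.00, adjusted p = 0.05001). The knockout call was lost without saline knockout 1 (3.02), 2 (3.41) or 3 (3.26) or LPS knockout 2 (2.66).

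Fcer1g had 22.3, 66.1 and 32.2 CPM in the LPS controls. It had 3.43, 10.2 and 3.37 CPM in the saline knockouts and 28.4, 75.1 and 21.03 CPM in the LPS knockouts. All LPS libraries were above all saline libraries. The control difference of 2.06 (SE 0.54, adjusted p = 0.0948) was not called, but passed without LPS knockout 2 (2.06, adjusted p = 0.0337), without both libraries numbered 3 (2.21, adjusted p = 0.0313) and with DESeq2 (2.07, adjusted p = 0.00230). It also passed with sex as a covariate, with the replicate number as a block (1.86), in a fit of the 2 groups alone (2.08) and with no filter on low counts (2.06). The knockout difference was 2.86 (SE 0.56, adjusted p = 0.0221) and 3.19 without both libraries numbered 3 (adjusted p = 0.00331), and the call was lost without saline knockout 1 (2.60) or 3 (2.61).

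Fcgr1 reached 2.22, 5.34 and 2.31 CPM in the LPS controls and 2.28, 6.03 and 4.54 CPM in the LPS knockouts. Its saline level rested on 43 counts in all 3 controls, of which 35 were in saline control 3, and on 9 counts in the knockouts. The log2 difference was 2.11 (SE 0.83, adjusted p = 0.295) in controls and 4.60 (SE 0.97, adjusted p = 0.0254) in knockouts. Without both libraries numbered 3 of the LPS groups the values were 2.32 (adjusted p = 0.232) and 4.57 (adjusted p = 0.0206). Without saline control 3 the control value was 4.03 and was still not called. The knockout call was lost without saline knockout 1 (5.47), 2 (4.14) or 3 (4.53) or LPS knockout 2 (4.28). Between the genotypes this response differed by 2.49 (95% interval -0.09 to 5.07), which was not called, and by 0.58 without saline control 3.

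Fcgr4 reached 4.20, 6.88 and 1.40 CPM in the LPS controls and 4.86, 6.03 and 1.79 CPM in the LPS knockouts. The mean of the LPS controls was 83.2-fold above a floor of 3 counts over the saline control group. This figure leaves out the spread between the LPS libraries, which ran from 1.40 to 6.88 CPM. The fitted difference was called (edgeR adjusted p = 0.00167), and the call held in every alternative that was run. The filter, passed through the LPS libraries alone, helped to fix that call. Without both libraries numbered 3 its adjusted p was 0.000119. In knockouts, whose saline libraries had 0.106, 0.244 and 0.0718 CPM, the log2 difference was 4.80 (SE 0.84, adjusted p = 0.0111), and 5.17 (adjusted p = 0.00112) without both libraries numbered 3. That call was lost without saline knockout 1 (4.61), 2 (5.45) or 3 (4.54).

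**Figure D5:**
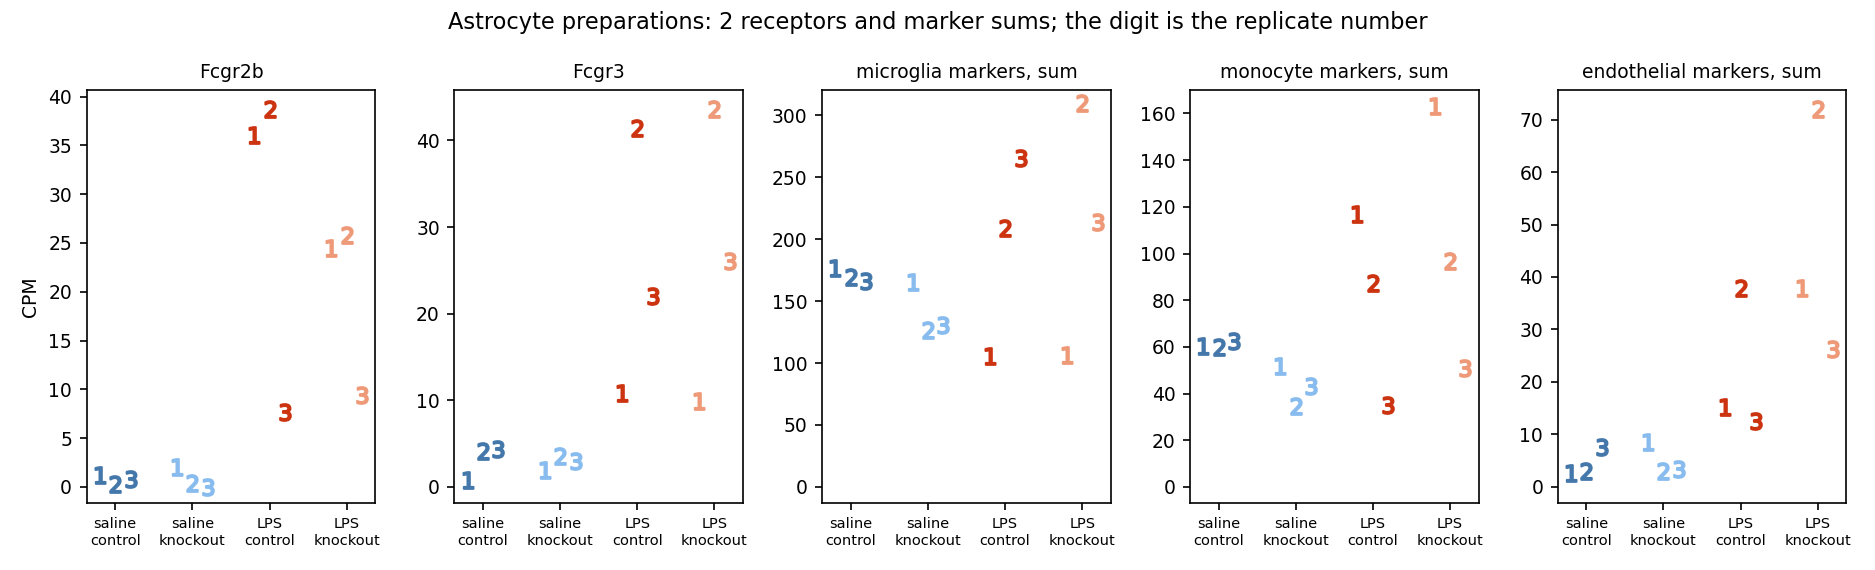
Fcgr2b, Fcgr3 and the summed CPM of microglia, monocyte and endothelial markers in the astrocyte preparations, by group; each digit is a library at its replicate number. Fcgr2b was low in the LPS libraries numbered 3 (7.67 and 9.44 CPM), as was the monocyte sum (35.0 and 50.7 CPM), whose most abundant gene was Vcan. Fcgr3 and the microglia sum were instead lowest in those numbered 1.

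The markers of other cells in the astrocyte preparations moved unevenly. The 10 microglia markers summed to 166 to 177 CPM in saline controls and to 106, 209 and 266 CPM in the LPS controls, and in knockouts to 127 to 166 CPM and to 107, 310 and 214 CPM. None of the 10 was called in either genotype. The 10 monocyte markers summed to 60.0 to 62.6 CPM and to 117, 87.3 and 35.0 CPM in controls, and to 34.7 to 51.8 CPM and to 163, 96.9 and 50.7 CPM in knockouts. Of these, 4 were tested and none was called, and the defining marker Ccr2 was at 0 in every saline library and at most 0.141 CPM after LPS. Vcan was on average the most abundant of the 10, so the sum is not read as a level of monocytes. The 10 neutrophil markers summed to 0.228 to 1.99 CPM and 5.99 to 6.51 CPM in controls, and to 0.861 to 2.16 CPM and 2.06 to 25.6 CPM in knockouts, where S100a8 was called higher; Camp and Ltf were at 0 in all LPS libraries. The 6 endothelial markers summed to 2.65 to 7.63 CPM and 12.6 to 37.9 CPM in controls and to 2.98 to 8.49 CPM and 26.2 to 72.1 CPM in knockouts. Ly6c1 was called higher in both genotypes (5.06 and 6.34) and Flt1 in knockouts (2.58). The 8 border macrophage markers summed to 4.64 to 6.65 CPM and 5.42 to 7.75 CPM in controls and to 2.22 to 7.76 CPM and 2.87 to 10.3 CPM in knockouts, with none called. The 6 B cell markers summed to at most 2.96 CPM in any astrocyte library. Of the 10 astrocyte markers, Gfap (2.86) and Gjb6 (1.28) were called higher in controls and Gfap (3.07) in knockouts. Leaving out each library in turn ended the knockout calls of S100a8 8 times, Flt1 6 times and Gfap 2 times, and the control calls of Ly6c1 5 times, Gjb6 4 times and Gfap 3 times. The part of such cells in the receptor levels was not tested.

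Of the 16 activating signalling genes, 1 was called higher in control astrocytes and 4 in knockout astrocytes, among them Lcp2 (3.87), Tyrobp (1.93) and Lyn (1.56), and none lower. Leaving out each of the 12 libraries in turn ended the knockout call of Lcp2 3 times, of Tyrobp 7 times and of Lyn 8 times. The medians of the 16 genes were 1.49 and 1.84, beside -0.0043 and 0.0365 over all genes, of which 0.775% and 1.35% were called higher. Which list or marker genes passed the astrocyte filter on low counts through the LPS libraries alone was not examined. A rise in them may thus follow in part from the filter. None of 8 inhibitory genes tested was called in either genotype. Trim21, the cytosolic antibody receptor, was called in knockouts (2.59), as was Cebpa (2.44), and each call was lost without each of 4 libraries in turn. Spi1 had 1.29 ± 0.278 CPM in saline controls and 7.43 ± 4.59 CPM in LPS controls and was not called. Ifng had 0 counts in every astrocyte library.

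The ratio of activating receptors to Fcgr2b in the LPS astrocytes differed between libraries by number. It was 1.68, 4.70 and 11.1 in controls and 2.47, 7.24 and 11.2 in knockouts, against 11.4 to 13.9 over all LPS microglia libraries. Only the libraries numbered 3 came near the microglia values. The difference between the cell types was not tested.

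The LPS response was set between the cell types in the fit over all 24 libraries, as microglia minus astrocytes. In controls it was -1.78 for Fcgr1, -4.01 for Fcgr2b (adjusted p = 0.0564), -2.65 for Fcgr3 and -0.98 for Fcer1g, and none of the members was called with edgeR, beside 0.203% of all genes. DESeq2, a fit with the replicate number as a block and a fit with no filter on low counts each called 3 of them, among them Fcgr2b and Fcgr3. For Fcgr4, at 0 in the saline control astrocytes, no value is given. In knockouts it was -4.09 for Fcgr1 (SE 0.88, adjusted p = 0.0353), -3.31 for Fcgr2b, -2.80 for Fcgr3, -1.26 for Fcgr4 and -1.55 for Fcer1g, so that 1 of 5 was called lower beside 0.224% of all genes. The responses in the 2 cell types start from very different saline levels, and the Fcgr1 value rests on the 9 counts of the saline knockout astrocytes. That call was lost with sex as a covariate (-4.02) and without microglia saline knockout 1 (-3.88), 2 (-4.21) or 3 (-4.16), microglia LPS control 1 (-4.09, adjusted p = 0.0503), microglia LPS knockout 1 (-4.13), 2 (-4.13) or 3 (-4.01), astrocyte saline knockout 2 (-3.62) or 3 (-4.00), or astrocyte LPS knockout 2 (-3.77). In controls, Fcgr2b passed without astrocyte saline knockout 1 or 3 or LPS knockout 1, 2 or 3 (-4.01 each) or without LPS control 3 (-4.45), and Fcgr1 without astrocyte saline control 3 (-3.68). In knockouts, Fcgr2b passed without astrocyte saline knockout 1 (-5.04), LPS control 3 (-3.30) or LPS knockout 3 (-3.65), and Fcgr3 without LPS knockout 1 (-3.20).

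Genotype made no called difference to the members in astrocytes either. The share of genes called over all 18188 was 0.0055% after saline, 0.0055% after LPS, 0.0055% averaged and 0 for the difference in the LPS response, with 473 genes at an unadjusted p under 0.05 and 0 with DESeq2 in the last. Those 473 are likewise a smaller share than the 0.05 that evenly spread p-values would give. Averaged over saline and LPS, the log2 difference was -0.86 for Fcgr1 (95% interval -2.14 to 0.42) and -0.15 for Fcgr2b (-1.56 to 1.26). It was -0.02 for Fcgr3 (-0.94 to 0.90) and -0.35 for Fcer1g (-1.14 to 0.43). These intervals are wider than those in microglia. After LPS the 5 estimates lay between -0.47 and 0.38, and no value is given for Fcgr4 where the saline controls at 0 enter. Fcgr1 after saline differed by -2.11 (95% interval -4.11 to -0.11, adjusted p = 1), and by -0.19 without saline control 3.

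Other genes in the stretch of chromosome 1 from Fcgr2b to Fcer1g served as neighbours. Of 13, 3 were tested in microglia, and none was called for LPS in either genotype, with no log2 difference beyond 0.37. In astrocytes 4 were tested, and Pcp4l1 was called higher in knockouts (2.69).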

How the data were processed

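The authors deposited 1 table of raw counts per library, whole numbers for each Ensembl identifier and not scaled. Alignment used STAR 2.6.0c and counting used HTSeq, per the submitters' processing notes. GRCm38 and GRCm39 are both named there, and which of them served a given table is not given in the sources used here, so coordinates are those of the annotation named beside them. Strand, counting mode and annotation release are likewise not given. The members were matched by symbol, and they and all gene and marker lists were chosen with earlier results of these data known. Named were the members, the called genes of each list (at most 4 in each direction), the defining genes of marker lists, and for each member the 3 genes of most like pattern at a mean of at least 8 CPM. The uncalled list genes named with their levels and the called markers were chosen after their values were seen. Some genes of the lists are counted but not reported by name here.

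Counts were tested in R 4.3.3 with edgeR 4.0.16 (filterByExpr, minimum count 10 and total 15, TMM scaling, robust quasi-likelihood fit), on the 12 libraries of each cell type, or on all 24 for comparisons between cell types. P-values were adjusted by Benjamini and Hochberg over all genes tested, and a gene was called at an adjusted p under 0.05. CPM used the TMM-scaled library sizes of the fit within each cell type, and log2 CPM a prior count of 2. The procedure was tested on simulated data. No source says that replicates were separate animals. Sex-linked transcripts of both patterns occurred within every group, so the libraries of a group did not all come from a single animal. The p-values measure the spread between these libraries, which may in part be technical. Reads carry no molecular identifiers, so limits from counts cover counting error only. Same-numbered control and knockout libraries deviated together for every number only in LPS astrocytes, where each of the 3 correlations exceeded 0.1. In microglia only number 1 after saline (0.442) and number 3 after LPS (0.324) exceeded 0.1. Alternatives were DESeq2 1.42.0, other size factors, other count filters, sex as a covariate, a replicate block, fits of 2 groups and each library left out. The covariate was the labelled sex, so LPS control 1 of the microglia entered as female against its sex-linked transcripts. Fits with this covariate that include microglia are therefore not a clean adjustment for sex. Leaving out both LPS astrocyte libraries numbered 3 was added after seeing the data.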

Additional observations from a re-analysis of the deposited data

Results flagged for a closer look

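The LPS response of Fcgr1 in knockouts differed between the cell types by a test of the difference itself. It was lower in microglia than in astrocytes by a log2 difference of -4.09 (SE 0.88, edgeR adjusted p = 0.0353). The microglia response was 0.52 and the astrocyte response 4.60 in the fits within each cell type. In controls the same difference was -1.78 and was not called (adjusted p = 0.404). In the fit within astrocytes Fcgr1 passed the filter on low counts through the LPS libraries alone. The saline knockout astrocytes held 9 counts of Fcgr1 in all, and the call was lost with the labelled sex as a covariate and without each of 10 libraries in turn.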

How the results depend on the processing

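In LPS against saline, the call of Fcgr4 in microglia held in both genotypes in every alternative that was run. Its call in control astrocytes held too, but there it passed the filter through the LPS libraries alone. No member was called between genotypes in any alternative. In control microglia 1 member was called, against 2 with DESeq2 and 3 with no filter on low counts. In knockout microglia 1 was called, against 3 with DESeq2, 3 with no filter, 2 with the replicate block and 2 in a fit of the 2 groups alone. For the difference in LPS response between cell types, 0 were called in controls, against 3 with DESeq2, 3 with no filter and 3 with the replicate block. In knockouts 1 was called there, against 3, 4 and 3 under the same settings and 0 with sex as a covariate. With 1 library left out, the members called ranged from 1 to 3 in knockout microglia, 1 to 3 in control astrocytes, 0 to 5 in knockout astrocytes, and 0 to 2 for the difference between cell types in each genotype. The cause was not tested.

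Some estimates between genotypes turned in sign. Averaged in microglia, Fcer1g was 0.0162 with the replicate block and 0.0138 with the block within injection. Averaged in astrocytes, Fcgr3 was 0.0388 with sex as a covariate, 0.0714 with the replicate block and 0.0652 with the block within injection. With 1 library left out, Fcer1g in saline microglia ranged from -0.42 to 0.0872, Fcgr4 in LPS microglia from -0.0606 to 0.63, and Fcgr2b for the difference between genotypes in microglial response from -0.14 to 0.36. Averaged in microglia, the ranges were -0.0652 to 0.20 for Fcgr1, -0.0607 to 0.19 for Fcgr2b, -0.19 to 0.35 for Fcgr3, -0.0163 to 0.34 for Fcgr4 and -0.16 to 0.14 for Fcer1g. Averaged in astrocytes, they were -1.29 to 0.10 for Fcgr1, -1.03 to 0.12 for Fcgr2b and -0.30 to 0.28 for Fcgr3.

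Over all genes, 128 were called for LPS in control microglia, against 285 with DESeq2 and 463 with no filter, and 254 in knockout microglia, against 515, 637 and 158 with sex as a covariate. In control astrocytes 169 were called, against 639 with DESeq2, 804 with no filter, 295 with sex, 286 with the replicate block, 349 in a fit of the 2 groups and 734 without both libraries numbered 3. In knockout astrocytes 283 were called, against 827, 1027, 184 in a fit of the 2 groups and 912 without both libraries numbered 3. For the difference in response between cell types 50 were called in controls, against 377 with DESeq2, 638 with no filter, 28 with sex and 92 with the replicate block, and 67 in knockouts, against 467, 803, 40 and 175. With 1 library left out, these counts ranged from 89 to 157 in control microglia, 112 to 355 in knockout microglia, 36 to 476 in control astrocytes and 38 to 561 in knockout astrocytes, and from 10 to 281 and 28 to 259 for the difference between cell types. Between genotypes, where 0 or 1 were called, no filter gave 7 to 40 and DESeq2 at most 4. Among the other named genes, sex as a covariate ended the knockout microglia calls of Ptpn6, Pira2, Ltf and Ncr1, the block that of Ncr1, and a fit of the 2 groups those of Ltf there, of Rac2 in control microglia and of Tyrobp, Lyn, Trim21 and Cebpa in knockout astrocytes. In microglia the same-numbered control and knockout libraries correlated by 0.442, -0.089 and -0.112 after saline and by -0.167, -0.095 and 0.324 after LPS. The number thus went with a shared deviation in some pairs there but not in all. Saline control 1 and saline knockout 1 (0.442) also had like gene counts (6093966 and 6102404) and 28860 genes detected each. They held the highest Fcgr3 of their groups (162 and 179 CPM). Why they were alike was not tested. In the LPS astrocytes, same-numbered control and knockout libraries deviated together but also shared their labelled sex. There the block changed no member's call between genotypes. Saline astrocyte values rest on few reads for Fcgr1, Fcgr2b and Fcgr4: Fcgr1 had 1 to 35 counts, Fcgr2b 0 to 39 counts and Fcgr4 0 to 5 counts a library.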
